A study of Bos taurus with 9 samples.

Results

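The secreted Wnt antagonists examined here were FRZB, SFRP1, SFRP2 and SFRP4 of the secreted Frizzled-related family and DKK1 and DKK3 of the Dickkopf family. Their members were all probe sets with one of these names as the only gene symbol of the array's annotation, which gave 8 of 24016 probe sets and 6 of 9155 named genes. FRZB (NCBI gene identifier 281170), SFRP1 (282068), SFRP2 (510821) and SFRP4 (518004) had a single probe set each. DKK1 (504445) and DKK3 (506627) were each read by a probe set 1 and a probe set 2, where probe set 1 is the one with the higher mean signal.

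RNA came from 3 groups of 3 bovine cultures, each measured on 1 single-colour array. Day 28 chondrocytes were cells of articular cartilage, placed in agarose directly after isolation and kept for 28 days in defined medium with 10 ng/mL TGF-beta3, a growth factor that induces cartilage matrix. Day 28 MSCs were mesenchymal stem cells of bone marrow, given the same gel, medium, growth factor and time. Day 0 MSCs were harvested as soon as they had been placed in agarose. All cells were from 3 calves of 3 to 6 months, and each calf gave 1 culture to every group. Every day 28 culture received TGF-beta3, and day 0 chondrocytes were not analysed here, so that time, gel culture and TGF-beta3 cannot be told apart, nor can cell type and tissue of origin.

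Wnt proteins are secreted ligands that bind Frizzled receptors. Together with the co-receptors LRP5 and LRP6 this stabilises beta-catenin, which enters the nucleus and acts with TCF and LEF factors on target genes. Secreted Frizzled-related proteins carry a Frizzled-like domain that can bind Wnts outside the cell, whereas DKK1 binds LRP5 and LRP6 and blocks their use as co-receptors. In cartilage, FRZB was first isolated from bovine articular tissue, and Wnt signalling is known to influence both the formation of cartilage and its turnover to hypertrophic cells and bone.

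Values are deposited log2 array signals, listed in the order of donors 1, 2 and 3. Differences are on the same log2 scale, with the standard error of limma's model and its Benjamini-Hochberg adjusted p over 24016 probe sets, and folds are these differences on a linear scale. No fold is given where the lower group's mean was under 3, since the deposited values hold no detection calls and such signals may be near background. A probe set was called at an adjusted p under 0.05. Signals of different probe sets depend on their probes and were not set against each other. Because RNA was taken from whole cultures, fewer cells that express a gene and less RNA of it per cell cannot be told apart.

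The cell labels were set against marker genes. Over 8 measured chondrocyte markers the mean log2 signal per array was 11.38 to 11.53 in day 28 chondrocytes, 10.80 to 11.22 in day 28 MSCs and 5.85 to 6.25 in day 0 MSCs. Over 10 stromal markers it was 5.89 to 6.12, 5.80 to 6.32 and 6.82 to 7.63 in the same groups. The means of 6 fibroblast and synovial markers were 10.91 to 11.10, 10.21 to 10.45 and 9.09 to 9.87, those of 5 osteoblast markers 7.78 to 8.65, 7.91 to 8.62 and 6.98 to 7.41, and those of 4 adipocyte markers 4.61 to 5.14, 4.99 to 5.67 and 5.44 to 6.04. The means of 9 blood cell markers were 3.59 to 3.67, 3.03 to 3.12 and 2.86 to 4.02, with PTPRC, CD3E, CD79A and HBB below 2.58, the 25th percentile of all probe sets. The means of 5 endothelial markers were 3.05 to 3.18, 3.01 to 3.27 and 2.65 to 2.83, with PECAM1, CDH5, VWF and KDR below that percentile. The means of 5 cell cycle genes were 8.30 to 8.46 in day 28 chondrocytes, 3.48 to 4.63 in day 28 MSCs and 6.85 to 7.26 in day 0 MSCs. The part of these differences in the results below was not tested. The hybridisation control bioC read 8.80 on MSC_day28 replicate 3 and chondrocytes_day28 replicate 3, and 11.4 to 11.8 on the other 7 arrays. For 6 control transcripts with probe sets at both ends, the signal at the 3′ end exceeded that at the 5′ end by 1.81 ± 0.19 in day 28 chondrocytes, 1.81 ± 0.20 in day 28 MSCs and 1.34 ± 0.23 in day 0 MSCs (SD, n = 3 each), and its part in the differences from day 0 was not tested either.

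FRZB, also named SFRP3, was high in both day 28 cultures and low in day 0 MSCs. It read 9.93, 9.90 and 9.68 in day 28 chondrocytes, 9.98, 9.70 and 8.08 in day 28 MSCs, and 3.15, 2.77 and 2.19 in day 0 MSCs. Every day 28 array lay far above every day 0 array, while the day 28 groups overlapped, with MSC_day28 replicate 3 below the other 5. Day 28 MSCs exceeded day 0 MSCs by 6.55 ± 0.45 (adjusted p = 1.86e-05 in limma), and the 3 donors gave 6.83, 6.93 and 5.89. Day 28 chondrocytes exceeded day 0 MSCs by 7.13 ± 0.45 (adjusted p = 8.58e-06 in limma). Between day 28 chondrocytes and day 28 MSCs the difference was 0.58 ± 0.45, with a 95% interval from -0.43 to 1.60 and an adjusted p of 0.499 in limma. The day 0 mean of 2.70 was close to 2.58, the 25th percentile of all probe sets. The low value of MSC_day28 replicate 3 was on an array with low hybridisation controls, and without both such arrays the difference between day 28 and day 0 MSCs was 7.14 ± 0.27. The other such array, chondrocytes_day28 replicate 3, read 9.68. Both are of donor 3, who was also lowest at day 0, so that donor and low controls cannot be told apart.

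SFRP4, a family member known for roles in bone and in phosphate handling, ran the other way. Its signals were 6.11, 7.23 and 5.94 in day 28 chondrocytes, 5.38, 5.20 and 5.41 in day 28 MSCs, and 9.02, 10.18 and 8.08 in day 0 MSCs. No 2 of these groups overlapped, and the lowest day 0 value was above the highest day 28 value. SFRP4 was lower in day 28 MSCs than in day 0 MSCs by a difference of -3.77 ± 0.49 (13.6-fold lower, adjusted p = 0.000511 in limma), and the donors gave -3.64, -4.98 and -2.67. Day 28 chondrocytes were also lower than day 0 MSCs, at -2.67 ± 0.49 (6.36-fold lower, adjusted p = 0.00333 in limma), a call lost when donor 1 was left out (-2.55, adjusted p = 0.0807). The difference of day 28 chondrocytes from day 28 MSCs was 1.10 ± 0.49, with a 95% interval from -0.02 to 2.21, and was not called (adjusted p = 0.215 in limma) although the arrays of these groups did not overlap.

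SFRP1, which can bind several Wnts and is widely expressed in connective tissue, passed the test in none of the 3 comparisons. It read 9.48, 9.91 and 9.55 in day 28 chondrocytes, 9.69, 10.84 and 9.89 in day 28 MSCs, and 9.27, 10.21 and 9.79 in day 0 MSCs. All 3 groups overlapped, and donor 2 was the highest in each. Day 28 MSCs differed from day 0 MSCs by 0.38 ± 0.33 (95% interval -0.36 to 1.12, adjusted p = 0.431 in limma), with 0.42, 0.63 and 0.10 in the 3 donors. Within donors, day 28 chondrocytes read below day 28 MSCs in all 3, by differences of -0.21, -0.93 and -0.33. As groups, day 28 chondrocytes differed from day 28 MSCs by -0.49 ± 0.33 (-1.23 to 0.25, adjusted p = 0.423) and from day 0 MSCs by -0.11 ± 0.33 (-0.85 to 0.63, adjusted p = 0.836).

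SFRP2, another Frizzled-related protein of mesenchymal cells, varied strongly between donors. It read 2.31, 4.49 and 4.07 in day 28 chondrocytes, 2.31, 1.86 and 1.54 in day 28 MSCs, and 3.85, 2.10 and 1.51 in day 0 MSCs. Donors 2 and 3 were higher in chondrocytes than on all other arrays, whereas donor 1 was highest in its day 0 MSCs. The SD between donors was 1.16 in day 28 chondrocytes and 1.22 in day 0 MSCs, above that of 99.6% and 99.3% of probe sets in those groups, and 0.39 in day 28 MSCs. SFRP2 passed the test in no comparison. Day 28 chondrocytes differed from day 28 MSCs by 1.72 ± 0.67 (unadjusted 95% interval 0.22 to 3.22, adjusted p = 0.146 in limma) and from day 0 MSCs by 1.14 ± 0.67 (adjusted p = 0.235), and day 28 MSCs differed from day 0 MSCs by -0.58 ± 0.67 (adjusted p = 0.566). Without donor 1 the differences of day 28 chondrocytes were 2.58 ± 0.28 from day 28 MSCs (adjusted p = 0.0132) and 2.48 ± 0.28 from day 0 MSCs (adjusted p = 0.00558). The mean signal over all arrays was 2.67, just above the 25th percentile, so that most of these arrays read near the low end of the scale.

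**Figure D1:**
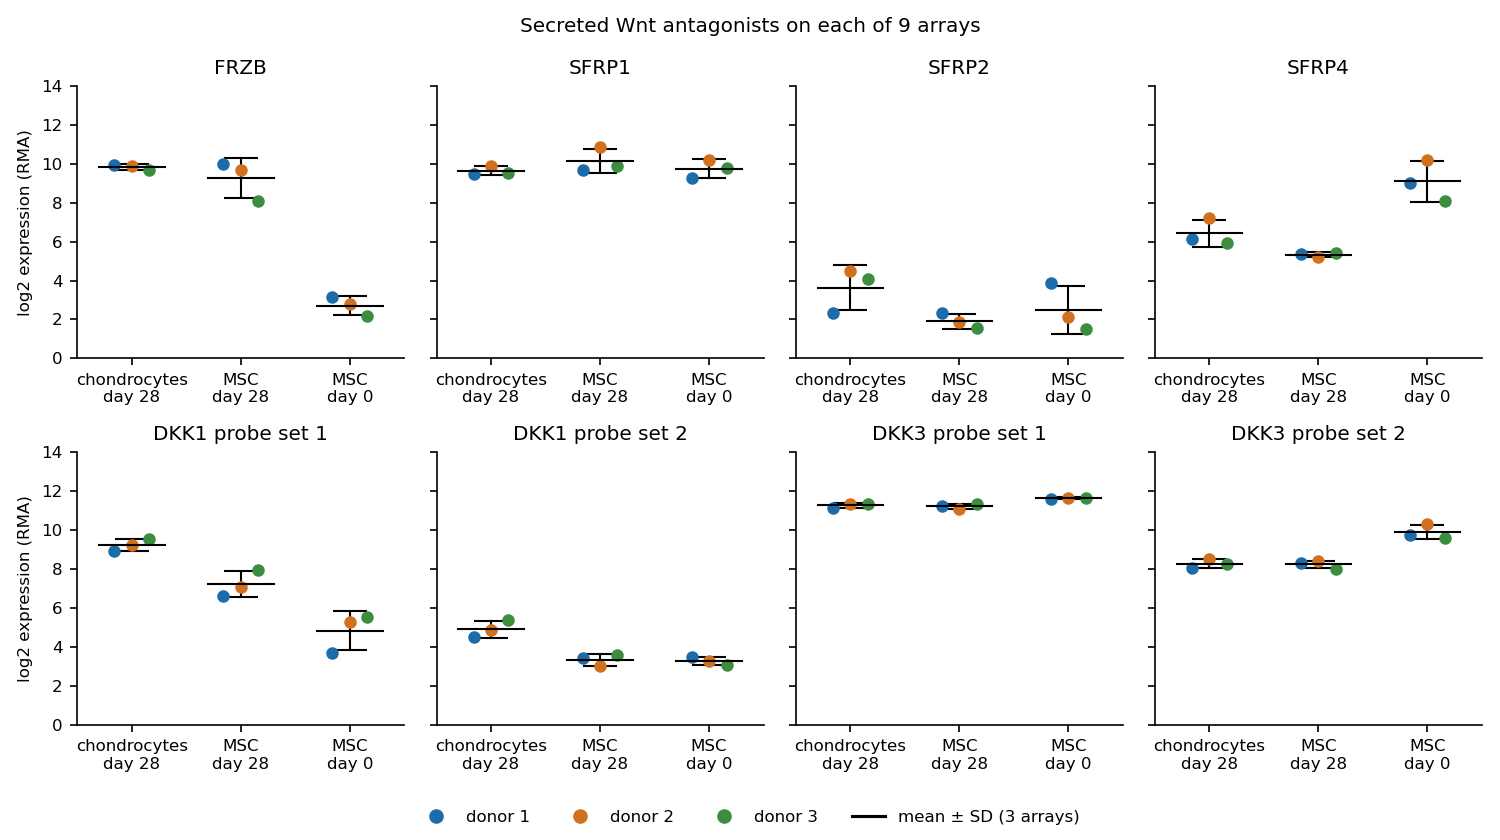
Log2 signal of the 8 probe sets of the secreted Wnt antagonists on each of the 9 arrays. Points are arrays, coloured by donor, lines are the mean ± SD of a group's 3 arrays, and groups run from day 28 chondrocytes through day 28 MSCs to day 0 MSCs; FRZB means are 9.84, 9.25 and 2.70, SFRP4 means are 6.43, 5.33 and 9.10, and those of SFRP1 are 9.65, 10.14 and 9.76 in that order.

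DKK1, the Dickkopf protein that blocks LRP5 and LRP6, was highest in day 28 chondrocytes by both of its probe sets. Probe set 1 read 8.92, 9.22 and 9.52 in day 28 chondrocytes, 6.64, 7.09 and 7.94 in day 28 MSCs, and 3.70, 5.28 and 5.51 in day 0 MSCs. The 3 groups formed steps without overlap, with chondrocytes on top and day 0 MSCs at the bottom. DKK1 probe set 1 rose in day 28 MSCs over day 0 MSCs by 2.39 ± 0.48 (5.25-fold, adjusted p = 0.00486 in limma). In day 28 chondrocytes it was higher than in day 28 MSCs by 2.00 ± 0.48 (4.0-fold, adjusted p = 0.0295) and higher than in day 0 MSCs by 4.39 ± 0.48 (21.0-fold, adjusted p = 0.000187). The chondrocyte excess over day 28 MSCs was 2.29, 2.13 and 1.58 in donors 1, 2 and 3.

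DKK1 probe set 2 read 4.49, 4.88 and 5.36 in day 28 chondrocytes, 3.42, 3.00 and 3.57 in day 28 MSCs, and 3.50, 3.27 and 3.04 in day 0 MSCs. Chondrocytes again stood above all MSC arrays, but the MSC groups overlapped. Day 28 chondrocytes were higher than day 28 MSCs by 1.58 ± 0.24 (2.99-fold, adjusted p = 0.00374 in limma) and higher than day 0 MSCs by 1.64 ± 0.24 (3.12-fold, adjusted p = 0.000992). Between day 28 and day 0 MSCs the difference was 0.06 ± 0.24 (95% interval -0.49 to 0.61, adjusted p = 0.888), so that the probe sets of DKK1 disagreed in this comparison. Probe set 2 had a mean signal of 3.84, under the median of 4.99 over all probe sets, and the cause of the disagreement was not tested.

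The DKK1 calls between day 28 chondrocytes and day 28 MSCs depended on few arrays. For probe set 1 the call was lost without chondrocytes_day28 replicate 1, 2 or 3 (adjusted p = 0.0616, 0.0908 and 0.0882 in limma), without MSC_day28 replicate 1 or 2 (0.0931 and 0.0856), without donor 2 or 3 (0.239 and 0.0581), and without both arrays of low hybridisation controls (2.21 ± 0.56, adjusted p = 0.0566). Its difference stayed between 1.71 and 2.36 in all 24 alternatives, and with donor as a block its adjusted p was 0.00327. For probe set 2 the call was lost without donor 2 (1.43, adjusted p = 0.0896).

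DKK3, a divergent Dickkopf protein that is not thought to act on LRP5 and LRP6 as DKK1 does, was lower at day 28 than in day 0 MSCs by its probe set 2. That probe set read 8.06, 8.51 and 8.26 in day 28 chondrocytes, 8.31, 8.39 and 8.01 in day 28 MSCs, and 9.77, 10.33 and 9.60 in day 0 MSCs. All 6 day 28 arrays lay below the 3 day 0 arrays, and the day 28 groups overlapped. Day 28 MSCs differed from day 0 MSCs by -1.66 ± 0.21 (3.16-fold lower, adjusted p = 0.000452 in limma), and day 28 chondrocytes by -1.62 ± 0.21 (3.08-fold lower, adjusted p = 0.000524). Day 28 chondrocytes differed from day 28 MSCs by 0.04 ± 0.21, with a 95% interval from -0.44 to 0.52 (adjusted p = 0.948).

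DKK3 probe set 1 read 11.13, 11.34 and 11.37 in day 28 chondrocytes, 11.26, 11.08 and 11.35 in day 28 MSCs, and 11.60, 11.67 and 11.66 in day 0 MSCs. Here too the day 0 arrays were the highest, by a much smaller margin. The difference between day 28 and day 0 MSCs was -0.41 ± 0.13 (1.33-fold lower, adjusted p = 0.0410 in limma), and this call was lost in 15 of 24 alternatives, in which all differences stayed between -0.47 and -0.32. Day 28 chondrocytes differed from day 0 MSCs by -0.36 ± 0.13 (adjusted p = 0.0635), which passed in 5 alternatives, and from day 28 MSCs by 0.05 ± 0.13 (95% interval -0.25 to 0.34, adjusted p = 0.890). The mean signal of probe set 1 over all arrays was 11.39, and the highest value of any probe set was 13.96.

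**Figure D2:**
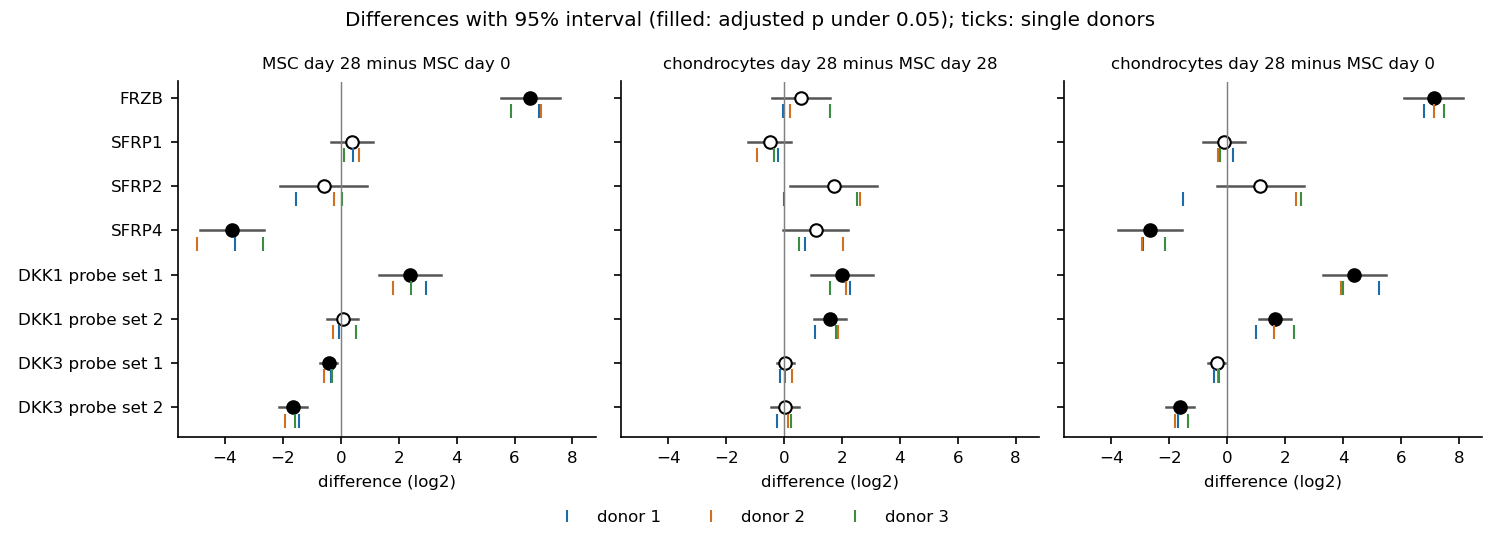
Differences in log2 signal of the 8 probe sets in each of the 3 comparisons, with 95% intervals of limma's model, filled points for an adjusted p under 0.05 and ticks for the single donors. The largest rise over day 0 MSCs is that of FRZB (6.55 in day 28 MSCs and 7.13 in day 28 chondrocytes), the largest fall that of SFRP4 (-3.77 and -2.67), and between the day 28 groups only the DKK1 probe sets are filled (2.00 and 1.58).

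In day 28 MSCs against day 0 MSCs, 5 of the 8 probe sets were called, against 30.2% of all probe sets in either direction. FRZB and DKK1 probe set 1 were the 2 higher (14.6% of all probe sets were called higher), and SFRP4 and both DKK3 probe sets were the 3 lower (15.6%). The arrays of the 2 groups did not overlap for the same number, 5 of 8, against 42.2% of all probe sets. The median difference was -0.18 over the members and -0.06 over all probe sets, and the median size of a difference was 1.12 and 0.35.

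In day 28 chondrocytes against day 28 MSCs, 2 of the 8 were called, both higher and both of DKK1, against 10.3% of all probe sets in either direction, 6.27% higher and 4.06% lower. Without overlap were 3 of 8, SFRP4 besides the DKK1 probe sets, against 26.8% of all probe sets. The median difference was 0.84 over the members and -0.03 over all probe sets. In day 28 chondrocytes against day 0 MSCs, 5 were called, against 31% of all probe sets, with FRZB and both DKK1 probe sets higher (15.1% of all probe sets) and SFRP4 and DKK3 probe set 2 lower (15.9%). Groups did not overlap for 6 of 8, against 46.7%, and the median difference was 0.51 against -0.07 over all probe sets. These comparisons share arrays in pairs, so their counts are not independent of each other, and the probe sets of one gene share their target.

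The remaining secreted antagonists of the pathway, from a list of 10 genes of which 5 had a named probe set, were described by the probe set of highest mean. SFRP5, a close relative of SFRP1, read 3.67, 5.07 and 3.95 in day 28 chondrocytes, 7.69, 6.52 and 4.42 in day 28 MSCs, and 2.93, 2.50 and 2.79 in day 0 MSCs. Day 28 MSCs stood above day 0 MSCs on every array, by 3.47 ± 0.70 (adjusted p = 0.00514 in limma), a call lost without donor 2 (adjusted p = 0.0745). The lowest of the day 28 MSC values was again that of replicate 3, where donor 3 and low hybridisation controls cannot be told apart. In day 28 chondrocytes the array with low controls read 3.95, above replicate 1 at 3.67. Day 28 chondrocytes also stood above day 0 MSCs on every array, by 1.49 ± 0.70, without a call (adjusted p = 0.143 in limma). That difference was called higher in 4 alternatives. The difference of day 28 chondrocytes from day 28 MSCs was -1.97 ± 0.70 without a call (adjusted p = 0.117). It was called lower in 4 alternatives, at -2.87 without MSC_day28 replicate 3 (adjusted p = 0.00563), -2.73 without both arrays of low hybridisation controls (0.0218), -2.73 without donor 3 (0.0437) and -1.97 with these arrays as a block (0.0477).

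SOSTDC1, a secreted protein that can bind LRP5 and LRP6 and also BMPs, separated day 28 chondrocytes from both MSC groups. It read 7.03, 7.49 and 7.05 in day 28 chondrocytes, 3.07, 3.54 and 3.46 in day 28 MSCs, and 3.21, 2.78 and 2.39 in day 0 MSCs. No chondrocyte array came near an MSC array, while the MSC groups overlapped. Day 28 chondrocytes were higher than day 28 MSCs by 3.84 ± 0.24 (14.3-fold, adjusted p = 2.21e-05 in limma) and higher than day 0 MSCs by 4.40 ± 0.24 (adjusted p = 3.53e-06). IGFBP4, an IGF-binding protein that also can interfere with Wnt receptors, fell to 7.57, 6.83 and 6.08 in day 28 MSCs, against 9.72, 9.36 and 9.66 in day 0 MSCs (-2.76 ± 0.33, adjusted p = 0.000306). In day 28 chondrocytes IGFBP4 was lower than in day 0 MSCs by a difference of -3.50 ± 0.33 (adjusted p = 8.21e-05). By list, 1 of 5 was higher and 1 lower in each comparison with day 0 MSCs, and 1 was higher in day 28 chondrocytes than in day 28 MSCs. That is 40% called in day 28 MSCs and 40% in day 28 chondrocytes against day 0 MSCs, near the 34.5% and 36% of all genes. Between the day 28 groups it is 20%, beside 13.2% of all genes. WIF1 and DKK2 had no named probe set.

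**Figure D3:**
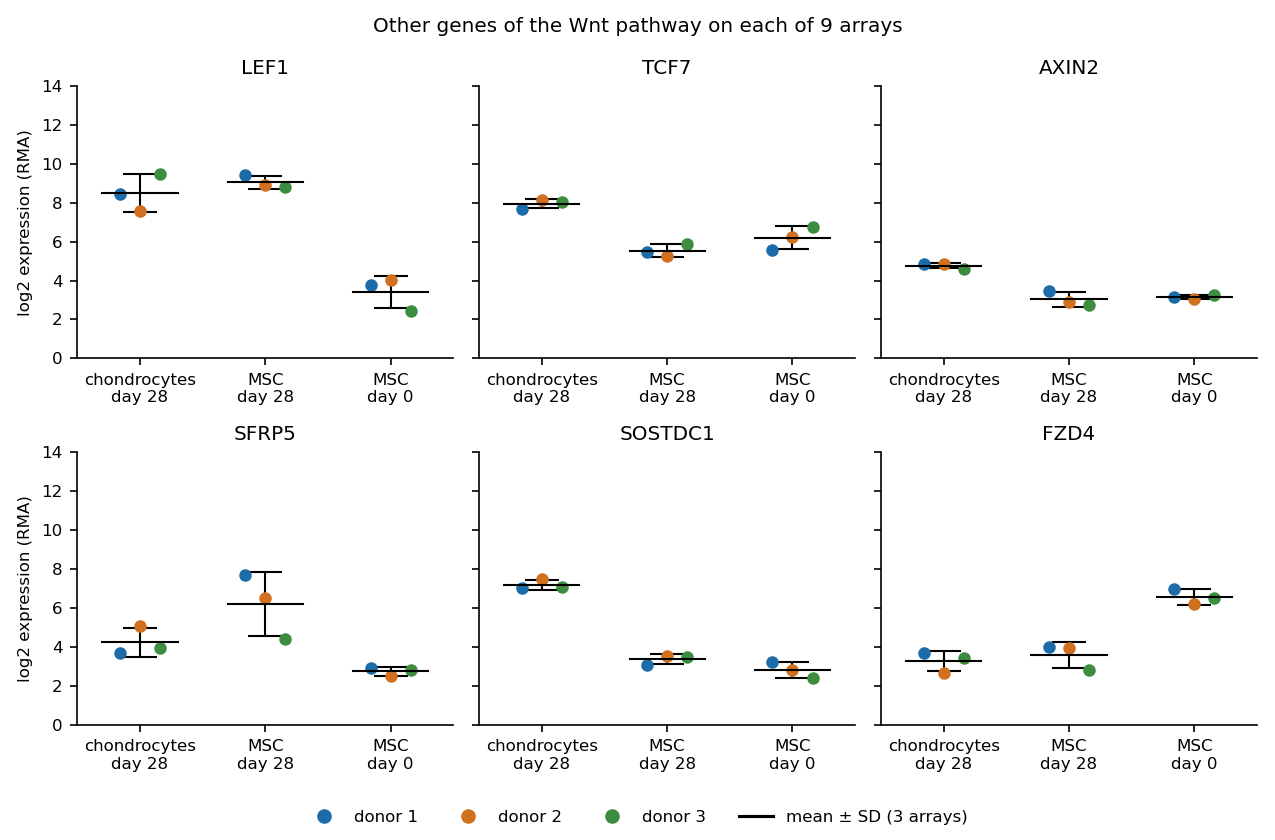
Log2 signal per array of LEF1, TCF7, AXIN2, SFRP5, SOSTDC1 and FZD4, with points for arrays, coloured by donor, lines for the mean ± SD of a group's 3 arrays, and groups ordered from day 28 chondrocytes through day 28 MSCs to day 0 MSCs. LEF1 is at 7.57 to 9.50 on the day 28 arrays and at 2.45 to 4.02 in day 0 MSCs, TCF7, AXIN2 and SOSTDC1 are highest in day 28 chondrocytes, and FZD4 is highest in day 0 MSCs.

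Of 19 Wnt ligands, WNT2B, WNT6 and WNT11 had a named probe set. By the probe set of highest mean, 0 of 3 were called in any of the 3 comparisons in limma. At an unadjusted p under 0.05 it was 1 in day 28 MSCs against day 0 MSCs, 1 in day 28 chondrocytes against day 28 MSCs and 0 in day 28 chondrocytes against day 0 MSCs. Of all genes, 34.5%, 13.2% and 36% were called in these comparisons, and no share is given at the unadjusted threshold. For WNT2B the probe set of highest mean gave -0.79 ± 0.73 in day 28 against day 0 MSCs. Another of its probe sets was called higher there (0.50 ± 0.14, adjusted p = 0.0227 in limma), at low group means of 2.82 and 2.32. WNT5A had no named probe set. Among agonists and secretion factors, 3 of 4 measured genes fell in day 28 MSCs and in day 28 chondrocytes against day 0 MSCs, where 21% and 20.9% of all genes were called lower. RSPO3, an R-spondin that strengthens Wnt signals at the receptor, was lower in day 28 MSCs by a difference of -2.86 ± 0.51 (adjusted p = 0.00267 in limma) and in day 28 chondrocytes by -1.90 ± 0.51 (adjusted p = 0.0199, a call lost in 6 alternatives, chondrocytes_day28 replicate 1 or 3 and MSC_day0 replicate 2 left out among them). NDP, a ligand of FZD4 that is not a Wnt, was lowest in day 28 chondrocytes, at -1.38 ± 0.29 from day 28 MSCs (adjusted p = 0.0174, lost in 5 alternatives that left out arrays or donors) and -2.52 ± 0.29 from day 0 MSCs (adjusted p = 0.000263). RSPO1 had differences of -1.96 ± 0.49 and -2.12 ± 0.49 from day 0 MSCs, but its lower probe set gave -0.07 and 0.06. WLS, the carrier of Wnts to the cell surface, was not called (0.38 ± 0.15 in day 28 MSCs against day 0 MSCs, adjusted p = 0.0932). In day 28 MSCs 1 of the 4 genes, in place of 3, was called lower without both arrays of low hybridisation controls and also without donor 3.

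Receptor genes were lower at day 28 wherever they were called. Of 25 listed genes, 11 were measured. In day 28 MSCs against day 0 MSCs 5 fell and 0 rose, where 21% of all genes were called lower and 13.5% higher. In day 28 chondrocytes against day 0 MSCs 6 fell and 0 rose, where 20.9% of all genes were called lower and 15.1% higher. Between the day 28 groups 0 were called in limma, against 13.2% of all genes, and 2 had an unadjusted p under 0.05. In 5 alternatives 1 was called there. FZD4, a Frizzled receptor, read 3.68, 2.68 and 3.44 in day 28 chondrocytes, 3.98, 3.94 and 2.81 in day 28 MSCs, and 6.97, 6.19 and 6.52 in day 0 MSCs. The day 28 groups overlapped each other and lay apart from day 0, at -2.98 ± 0.37 for MSCs (adjusted p = 0.000374 in limma) and -3.30 ± 0.37 for chondrocytes (adjusted p = 0.000219). The lower probe set of FZD4 gave -0.03 and 0.04 and was not called. ROR2, a receptor tyrosine kinase for WNT5A, differed by -1.49 ± 0.27 in day 28 MSCs and -1.16 ± 0.27 in day 28 chondrocytes, and FZD1 by -1.20 ± 0.23 and -1.48 ± 0.23, with its other probe set at -2.34 and -2.40. LGR4, a receptor of R-spondins, differed by -1.29 ± 0.18 and -0.75 ± 0.18, with its other probe set at -2.51 and -1.90. The chondrocyte call of LGR4 was lost without both arrays of low hybridisation controls (adjusted p = 0.0554), without donor 2 (0.0877) and without donor 3 (0.102), and that of ROR2 without donor 1 (0.0870) and without donor 3 (0.0793). GPC4 was lower in day 28 chondrocytes than in day 0 MSCs by a difference of -1.65 ± 0.29 (adjusted p = 0.00273, and 0.0524 without donor 2). FZD3 was lower there by -1.43 ± 0.18 (adjusted p = 0.000451), at low group means of 2.08 and 3.51. LRP5, the co-receptor to which DKK1 binds, differed by -0.20 ± 0.15 in day 28 MSCs (adjusted p = 0.341) and by -0.09 ± 0.15 in day 28 chondrocytes (adjusted p = 0.685). LRP6 and KREMEN1 had no named probe set.

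Among 20 measured genes of the intracellular pathway, 5 rose and 3 fell in day 28 MSCs against day 0 MSCs, 4 rose and 2 fell in day 28 chondrocytes against day 0 MSCs, and 1 rose and 2 fell in day 28 chondrocytes against day 28 MSCs. That is 40%, 30% and 15% called, against 34.5%, 36% and 13.2% of all genes. In day 28 MSCs against day 0 MSCs the 8 calls became 2 without donor 1, 2 without donor 2 and 5 without donor 3. The rises over day 0 MSCs include CSNK1D, a casein kinase of the pathway, whose other 3 probe sets pointed the other way (-0.80, -0.78 and -0.86 in day 28 chondrocytes, against 0.72 for the highest). They also include TLE1, a co-repressor of TCF factors, whose chondrocyte call (0.99 ± 0.31, adjusted p = 0.0363 in limma) was lost in 9 alternatives. The falls from day 0 MSCs include CSNK1E in day 28 MSCs (-1.29 ± 0.30, adjusted p = 0.00969, at a day 0 mean of 2.95). PRICKLE1 fell by -1.15 ± 0.22 in day 28 chondrocytes (adjusted p = 0.00389). Lower in day 28 chondrocytes than in day 28 MSCs were DVL1 (-0.70 ± 0.18, adjusted p = 0.0433, lost in 17 alternatives) and CTNNBIP1 (-0.55 ± 0.13, adjusted p = 0.0317, lost in 11). CTNNBIP1 was also higher in day 28 MSCs than in day 0 MSCs, by 0.70 ± 0.13 (adjusted p = 0.00385 in limma). Its other probe set gave 0.37 there without a call. Day 28 chondrocytes differed from day 0 MSCs in CTNNBIP1 by 0.15 ± 0.13 (adjusted p = 0.442 in limma). LEF1, a nuclear partner of beta-catenin, read 8.46, 7.57 and 9.50 in day 28 chondrocytes, 9.44, 8.90 and 8.81 in day 28 MSCs, and 3.76, 4.02 and 2.45 in day 0 MSCs. Like FRZB it was high on all day 28 arrays, at 5.64 ± 0.52 over day 0 in MSCs (49.9-fold, adjusted p = 7.96e-05 in limma) and 5.10 ± 0.52 in chondrocytes (34.3-fold, adjusted p = 0.000125). CTNNB1, which encodes beta-catenin, was not called, with differences of 0.07 ± 0.13, 0.04 ± 0.13 and 0.11 ± 0.13 for day 28 against day 0 MSCs, day 28 chondrocytes against day 28 MSCs and day 28 chondrocytes against day 0 MSCs.

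TCF7, another nuclear partner of beta-catenin, and AXIN2, a feedback inhibitor and common readout of the pathway, were highest in day 28 chondrocytes. TCF7 read 7.68, 8.15 and 8.02 in day 28 chondrocytes, 5.47, 5.25 and 5.89 in day 28 MSCs, and 5.58, 6.25 and 6.77 in day 0 MSCs. AXIN2 read 4.83, 4.83 and 4.61 in day 28 chondrocytes, 3.46, 2.88 and 2.76 in day 28 MSCs, and 3.17, 3.07 and 3.26 in day 0 MSCs. For both genes the chondrocyte arrays stood above all MSC arrays, whose groups overlapped. TCF7 was higher in day 28 chondrocytes than in day 28 MSCs by 2.41 ± 0.30 (adjusted p = 0.00118 in limma, and 0.0563 without donor 2), with its other probe set at 2.29, and AXIN2 by 1.72 ± 0.19 (3.30-fold, adjusted p = 0.000669). Against day 0 MSCs the chondrocyte excess was 1.75 ± 0.30 for TCF7 and 1.59 ± 0.19 for AXIN2. Between day 28 and day 0 MSCs neither was called, with -0.67 ± 0.30 for TCF7 (adjusted p = 0.125, and -0.98 with 0.0256 without MSC_day0 replicate 1) and -0.13 ± 0.19 for AXIN2 (adjusted p = 0.666).

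Of 10 measured target genes, a list that includes DKK1, LEF1 and TCF7, 4 rose and 2 fell in day 28 MSCs against day 0 MSCs, 6 rose and 1 fell in day 28 chondrocytes against day 0 MSCs, and 3 rose and 0 fell in day 28 chondrocytes against day 28 MSCs. Those 3 were DKK1, TCF7 and AXIN2. The shares of the list called in these comparisons were 60%, 70% and 30%, against 34.5%, 36% and 13.2% of all genes. APCDD1, a membrane-bound Wnt inhibitor, was higher at day 28 by 2.37 ± 0.22 in MSCs and 1.62 ± 0.22 in chondrocytes, but its lower probe set gave -0.31 and -0.29. MYC, which drives growth and has many inputs besides Wnt, was lower in day 28 MSCs by a difference of -1.23 ± 0.36 (adjusted p = 0.0276 in limma), a call lost in 9 alternatives. CCND1 was also lower in day 28 MSCs than in day 0 MSCs, at -1.07 ± 0.22 (adjusted p = 0.00600). That call was lost without donor 1 (adjusted p = 0.0504) and without donor 3 (0.0848). In day 28 chondrocytes CCND1 was the only target called lower, at -1.48 ± 0.22 (adjusted p = 0.00113), and kept this call in all 23 alternatives. The cell cycle genes described above were also highest in chondrocytes (8.30 to 8.46), and their part in these counts was not tested.

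Over the 49 measured genes of these lists, members left out, 8 rose and 14 fell in day 28 MSCs against day 0 MSCs, which is 44.9% called, against 34.5% of all genes (13.5% higher and 21% lower). For day 28 chondrocytes against day 28 MSCs, 3 rose and 3 fell, or 12.2%, against 13.2% of all genes (8.35% higher and 4.81% lower). For day 28 chondrocytes against day 0 MSCs, 8 rose and 13 fell, or 42.9%, against 36% of all genes (15.1% higher and 20.9% lower). The median difference of the 49 genes was -0.13, -0.16 and -0.05 in these comparisons, beside -0.11, -0.02 and -0.12 over all genes.

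**Figure D4:**
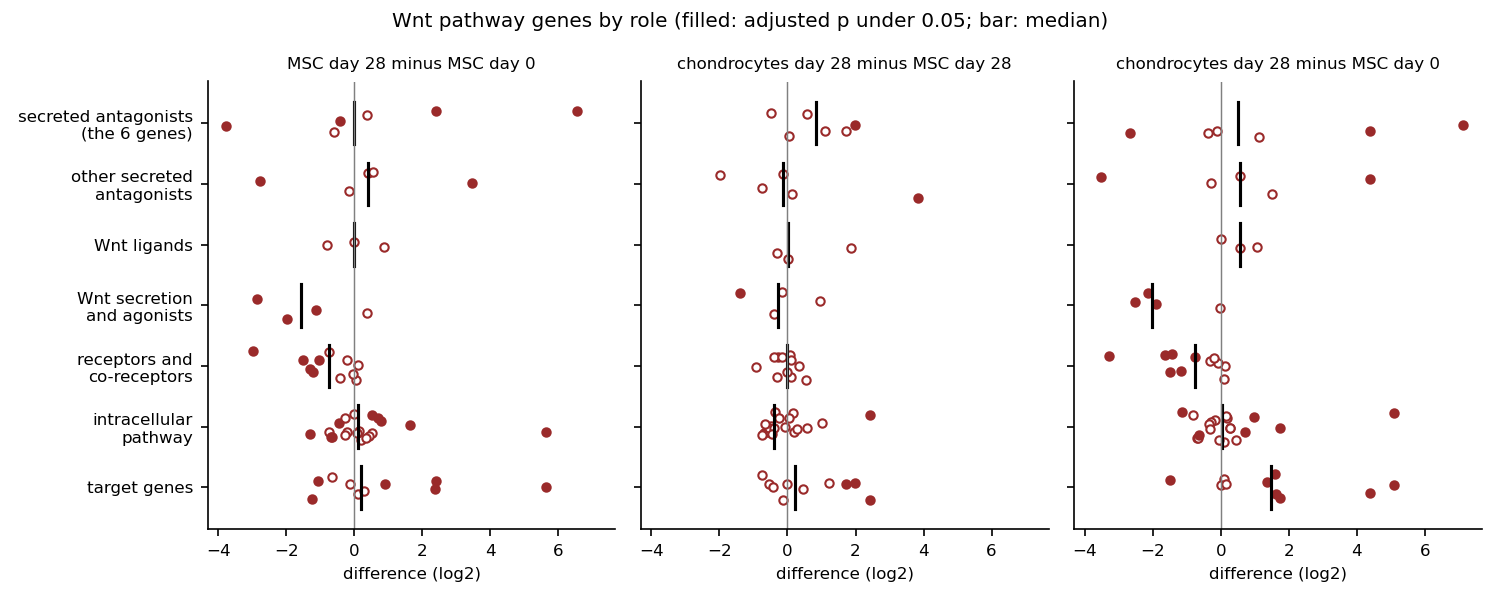
Differences in log2 signal of the measured genes of each Wnt list, 1 point per gene, filled for an adjusted p under 0.05, with a bar at the list's median, in the 3 comparisons. Filled receptors all lie below 0 against day 0 MSCs (5 in day 28 MSCs, 6 in day 28 chondrocytes), and the 3 filled target genes between the day 28 groups lie above 0. Of all genes, 21% and 20.9% were called lower against day 0 MSCs, and 8.35% were called higher between the day 28 groups.

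Other genes were ranked by Pearson's r with each antagonist over the 9 arrays. These fall into 3 groups, so that a high r can mainly reflect the order of group means and is given without a test. FRZB was most like FGFRL1 (r = 0.995), RFLNA (0.992) and COL11A2 (0.990), a chain of cartilage collagen XI. SFRP4 was most like RAB3GAP2 (0.975), CST3 (0.971) and CHMP1A (0.971). DKK1 probe set 1 was most like SLC22A17 (0.983), PLAUR (0.977), the urokinase receptor, and PRDX4 (0.976), and DKK3 probe set 1 was most like RASA1 (0.980), DNAJC13 (0.977) and PSMD14 (0.976). SFRP1, whose groups overlapped, was most like SLF2 (0.944), DPF1 (0.937) and DNAAF2 (0.919). Of these, DPF1 lay near the low end of the scale, with group means of 2.73 to 2.81, and SLF2 had 2.96 to 3.62. SFRP2 reached only 0.842 with HSPA12B, 0.841 with ADGRL2 and 0.837 with PLA2G7.

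The spread between donors also set the members apart from each other. FRZB had an SD of 0.14 in day 28 chondrocytes, 1.03 in day 28 MSCs and 0.48 in day 0 MSCs, while SFRP4 had 0.70, 0.11 and 1.05 and DKK1 probe set 1 had 0.30, 0.66 and 0.99. The median SD of all probe sets was 0.19, 0.24 and 0.20 in these groups. DKK3 probe set 1 varied little, with 0.13, 0.13 and 0.04. SFRP4 and DKK1 probe set 1 spread most in day 0 MSCs, and FRZB in day 28 MSCs, where replicate 3 read lowest.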

How the data were processed

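Per the labels, RNA of 9 cultures was reverse transcribed from the poly(A) tail, amplified, labelled with biotin and hybridised to 1 array each. The deposited values are log2 signals, made by the authors with RMA (background correction, quantile normalization and summary of probes into probe sets) per the submitters' processing notes. Its version, the annotation and the genome build are not given in the sources used here. Since all arrays are given 1 distribution, a common rise or fall of most transcripts is not visible in them. Of 24128 probe sets, 112 controls were left out and 24016 tested. Of these, 13292 had 1 symbol, 86 several and 10638 none. A RefSeq table of assembly ARS-UCD2.0 changed 0 symbols. Sequences of the probes or genes were not used here.

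All 3 groups were fitted in 1 model without donor by limma 3.58.1 in R 4.3.3 (lmFit, eBayes), after a test on simulated data, with the Benjamini-Hochberg adjustment of p-values taken over 24016 probe sets per comparison. The number of arrays, 3 per group, limits the precision. The donor numbers pair the arrays, as they mark the same calf. Between arrays of different groups, deviations from group means correlated at 0.108 to 0.412 within a donor and at -0.303 to 0.152 between donors. These ranges overlap and do not test the pairing. Deviations within a group depend on each other, and both day 28 arrays of donor 3 share low hybridisation controls. Donor blocks, other scalings, filters on low signal, other variance models, 2 groups alone, the arrays of low hybridisation controls and arrays or donors left out were the alternatives. The members, gene lists, markers and alternatives were chosen with earlier results of these data known. All members were named, and of each list and comparison up to 4 called genes with the largest difference, with AXIN2, LEF1, CTNNB1, LRP5 and other fixed genes. CCND1 was named besides these. Genes outside the members were read by their probe set of highest mean. Most like each member were the 3 genes of highest Pearson's r.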

Additional observations from a re-analysis of the deposited data

How the results depend on the processing

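Each member result was recomputed under 24 alternatives (23 for SFRP2 and DKK1 probe set 2). FRZB, SFRP4, DKK1 probe set 1 and DKK3 probe set 2 kept their calls between day 28 and day 0 MSCs in all of them, with differences of 6.18 to 7.14, -4.31 to -3.16, 1.82 to 2.73 and -1.81 to -1.45. Of the 8 probe sets, 2 were called between day 28 chondrocytes and day 28 MSCs. It was 1 with a filter at the median signal, which leaves DKK1 probe set 2 and SFRP2 out, 1 without the 2 arrays of low hybridisation controls, and 0 to 3 when arrays or donors were left out, with 0 without donor 2 and 3 without donor 1, where SFRP2 was added. Against day 0 MSCs the counts ranged from 4 to 5 for day 28 MSCs (5 in the results) and from 4 to 6 for day 28 chondrocytes (5 in the results). With donor as a fixed block, pairing the arrays of 1 calf, the counts were 4 for day 28 against day 0 MSCs, 2 for day 28 chondrocytes against day 28 MSCs and 5 for day 28 chondrocytes against day 0 MSCs, and the call lost was that of DKK3 probe set 1 (adjusted p = 0.0525 in limma). With donor as a random block they were 5, 2 and 6, with DKK3 probe set 1 added against day 0 MSCs (adjusted p = 0.0489). Neither block changed another member's call. The median over all probe sets shifted by 0.16 for day 28 chondrocytes against day 28 MSCs and by 0.15 against day 0 MSCs when arrays were centred on ribosomal protein probe sets, and by -0.12 for day 28 chondrocytes against day 0 MSCs when they were centred on their median. The pathway lists and genes were put through these alternatives after the data had been seen. Between the day 28 groups the intracellular genes called, 3 in the results, ranged from 0 without donor 2 to 6, and the target genes, also 3, from 1 without donor 2 to 5. For each comparison the Wnt ligands called, 0 in the results, reached 1 in some alternatives. For day 28 against day 0 MSCs the intracellular genes called, 8 in the results, ranged from 2 without donor 1 or 2 to 9. The receptors called against day 0 MSCs ranged from 3 to 6 for day 28 MSCs (5 in the results) and from 4 to 6 for day 28 chondrocytes (6 in the results). Between the day 28 groups the receptors called, 0 in the results, reached 1 in 5 alternatives, both donor blocks among them. Signals near the low end, as of SFRP2, limit what these arrays can resolve.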

Other observations

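Secreted antagonists of BMPs and activins, a neighbouring kind of extracellular inhibitor, were read for FST, FSTL3 and BMPER, the measured 3 of 12 listed genes. FST, which encodes follistatin, an activin-binding protein, was lower in day 28 MSCs than in day 0 MSCs by a difference of -1.73 ± 0.25 (adjusted p = 0.000911 in limma) and lower in day 28 chondrocytes than in day 0 MSCs by -1.73 ± 0.25 (adjusted p = 0.000901). BMPER, a secreted modulator of BMPs, was higher in day 28 chondrocytes than in day 28 MSCs by 3.20 ± 0.38 (adjusted p = 0.000976) and than in day 0 MSCs by 3.10 ± 0.38 (adjusted p = 0.000345). Its MSC means of 2.26 and 2.36 lie under the 25th percentile of all probe sets, and its lower probe set gave 0.30 and 0.26 and was not called. GREM1 had no named probe set.

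The genes next to the members in the ARS-UCD2.0 annotation were read after the members' values had been seen. EPDR1, next to SFRP4, was lower in day 28 MSCs than in day 0 MSCs by a difference of -2.92 ± 0.40 (adjusted p = 0.000634 in limma) and lower in day 28 chondrocytes than in day 0 MSCs by -2.61 ± 0.40 (adjusted p = 0.00119), the direction of SFRP4 in both. DNAJC10, next to FRZB, had -0.57 ± 0.16 in day 28 MSCs against day 0 MSCs (adjusted p = 0.0278), the opposite direction to FRZB. USP47, next to DKK3, had 0.60 ± 0.12 in the same comparison (adjusted p = 0.00388), opposite to DKK3, -0.01 ± 0.12 in day 28 chondrocytes against day 0 MSCs (adjusted p = 0.949) and -0.62 ± 0.12 in day 28 chondrocytes against day 28 MSCs (adjusted p = 0.0101). GOLGA7, next to SFRP1, was higher in day 28 MSCs than in day 0 MSCs by 0.60 ± 0.15 (adjusted p = 0.0142). PRKG1 and MBL2, on either side of DKK1, were not called there, at -0.83 ± 0.30 (adjusted p = 0.0636) and -0.15 ± 0.13 (adjusted p = 0.460).

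SFRP2 had exactly the same deposited value in donor 1's day 28 chondrocytes and day 28 MSCs. Such equal values were found for 2.37% of probe sets between these arrays and for 1.71% to 3.73% over all pairs of the 9 arrays.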
